A study of Arabidopsis thaliana with 6 samples.

Results

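The 101 nuclear genes described here code, by their deposited annotation, for proteins of the cytosolic small ribosomal subunit of *Arabidopsis thaliana*. They were drawn from the 32243 genes listed for each library by a position on Chr. 1 to Chr. 5 and by a pair of gene ontology (GO) terms, cytosolic small ribosomal subunit and structural constituent of ribosome. Of the 103 genes with the first term, AT5G24490 lacked the second and 1 other gene did not lie on these chromosomes. Chr. 2 holds 18 of the members, while Chr. 1 and Chr. 4 hold 12 each, Chr. 3 holds 28 and Chr. 5 holds 31. In the RefSeq annotation 95 of them have a protein and 6 are transcribed pseudogenes. The 95 proteins fell into 32 families, each named after its small subunit (S) protein, and members of a family are paralogues.

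The small subunit holds the messenger RNA on the ribosome, and its decoding centre matches codons with transfer RNAs. Each small subunit carries 1 copy of most of its proteins, and in plants nearly every one of these proteins is coded by several nuclear genes on different chromosomes. Leaf cells make most of their ribosomes while the leaf grows. In Arabidopsis, mutations in single members such as *PFL* (S18), *PFL2* (S13) and *AML1* (S5) are known to alter leaf shape.

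The libraries were made from fully mature leaves of *flpl1* (line C30-81-as6) and Col-0 plants grown to equal age, with 3 plants per genotype and 1 plant per library. The *flpl1* mutant was recovered after C-ion irradiation of Col-0 dry seeds and is known from genome sequencing to carry additional Chr. 2 material. Its plants were picked by their phenotype and additional DNA content in flow cytometry. Col-0 is the unirradiated parent accession. Because *flpl1* is 1 line, the additional Chr. 2 and any other change left by the irradiation cannot be told apart, and the p-values below measure the spread between plants of each genotype. The paper reports that *flpl1* flowers later than Col-0, so leaves of plants of equal age may differ in developmental stage. Such a difference in stage and the genotype itself cannot be told apart here either.

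The libraries held 19465078 to 24633070 counts on genes. Genes on Chr. 2 took 19.6 to 20.01% of all counts in *flpl1* and 14.9 to 15.6% in Col-0, so the Chr. 2 share of every library went with its label. Leaf mesophyll genes were abundant in all libraries (*RBCS1A*, which codes for a small subunit of Rubisco, had 11469 to 16821 FPKM in *flpl1* and 3225 to 4941 in Col-0). The shoot meristem genes *WUS* and *CLV3* and the senescence gene *SAG12* had 0 counts in every library. FPKM, used below for levels, is the number of read fragments per kilobase of exon, scaled to the library's total.

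Transcripts of the small subunit proteins were more abundant in *flpl1* than in Col-0 for nearly the whole list. Of the 85 members with enough counts to test, 70 (82.4%) were upregulated DEGs, that is, genes with an adjusted p under 0.05 and at least a 2-fold difference in edgeR's quasi-likelihood test. Among all 18638 genes tested, 19.8% were upregulated by the same rule. Of the 70, 3 had enough counts only through *flpl1*, which favours such a call: AT5G59240 and the pseudogenes AT2G24110 and AT5G37072. A further 10 members were higher at an adjusted p under 0.05 with less than 2-fold, which makes 80 higher in all, against 30.9% of all genes. The other 5 did not pass, and 0 were downregulated, against 14.4% of all genes. In edgeR 0 members were lower at an adjusted p under 0.05, against 30.7% of all genes, and 0 at an unadjusted p under 0.05. In DESeq2 0 were downregulated. The median log2 fold change of the 85 members was 1.43 (2.69-fold), with quartiles of 1.06 and 1.85, against a median of 0.00 for all genes tested. On TMM-scaled counts, the scale of the test, all 3 *flpl1* libraries lay above all 3 Col-0 libraries for 82 members (96.5%), against 34.8% of all genes. On FPKM, the scale of the levels and overlaps given below, they did so for 80 members, against 29.8% of all genes. AT4G29390 and AT5G30510 overlapped on FPKM only. Testing the 2-fold limit itself left 46 members (54.1%), against 12.4% of all genes. Without *flpl1* replicate 1, 57 members were upregulated.

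**Figure D1:**
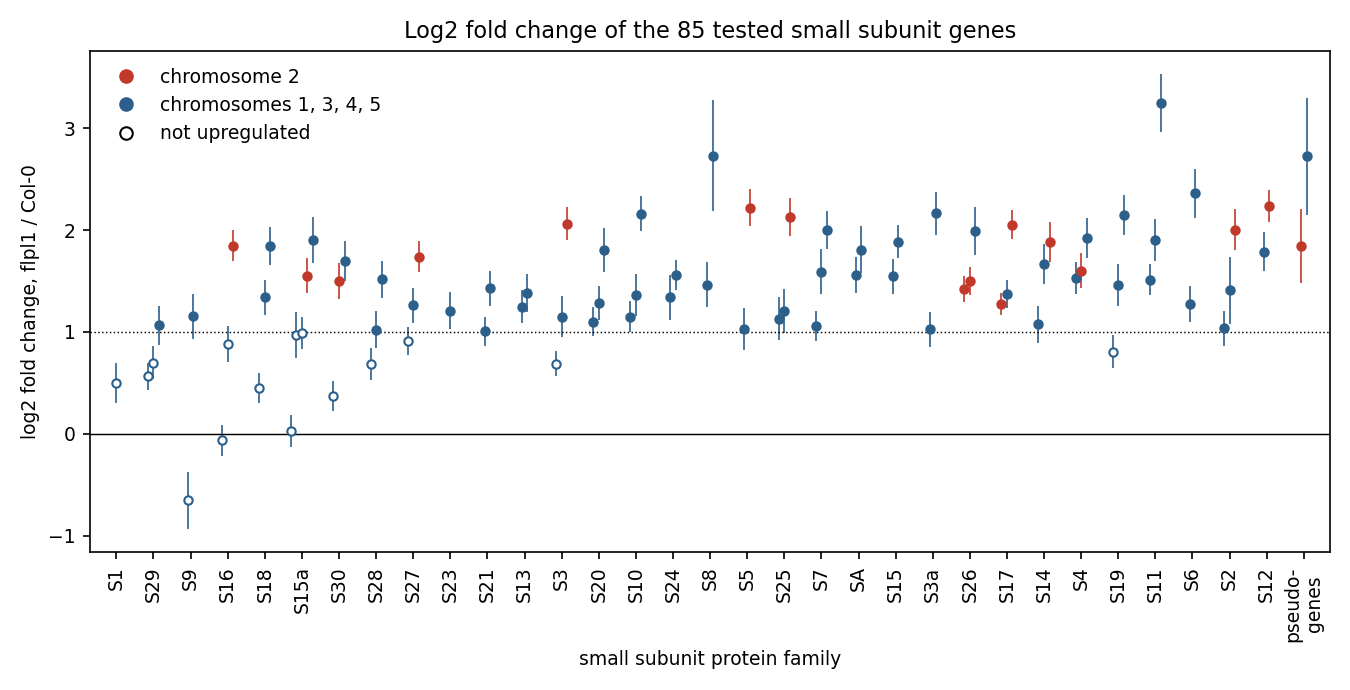
Log2 fold change (*flpl1* over Col-0, vertical axis) of the 85 tested members with its standard error (bars), by protein family in the order of the ratio of summed family FPKM; red points lie on Chr. 2, blue points elsewhere, and open points were not upregulated. All 16 points on Chr. 2 lie above the 2-fold line (dotted), and most open points lie in the families at the left.

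Expressed as a share of each library, the 101 members took 1.17, 0.831 and 0.824% of all counts in *flpl1* replicates 1 to 3 and 0.377, 0.437 and 0.391% in Col-0. The means were 0.943% ± 0.199 (SD, n = 3) and 0.402% ± 0.0313, a ratio of 2.35, and the groups did not overlap (exact two-sided permutation test, p = 0.1, the smallest that 3 against 3 allows). *flpl1* replicate 1 stood above the other *flpl1* libraries in this share. The median level of the tested members relative to the Col-0 mean, on the log2 scale, was 1.75 in that library and 1.33 and 1.20 in the other *flpl1* libraries, while the Col-0 libraries ranged from -0.03 to 0.04.

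Marker genes of dividing cells moved with the members. All 7 genes of that list, among them the replication factor *PCNA1* and the mitotic cyclin *CYCB1;2*, were upregulated. Their summed FPKM was 33.2, 26.3 and 16.5 in *flpl1* and 1.55 to 1.92 in Col-0, with *flpl1* replicate 1 again the highest. In *flpl1* the levels of these genes ran from 0.31 to 0.65 FPKM for *CYCB1;1*, the lowest, to 5.23 to 10.25 for *PCNA1*, the highest. The part of dividing cells in the small subunit result was not tested. Of the 4 senescing leaf markers, *NAP* and *NYE1* were downregulated, *SAG13* did not pass and *SAG12* was at 0. In RNA from whole leaves, fewer cells of a type and less RNA per cell cannot be told apart.

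**Figure D2:**
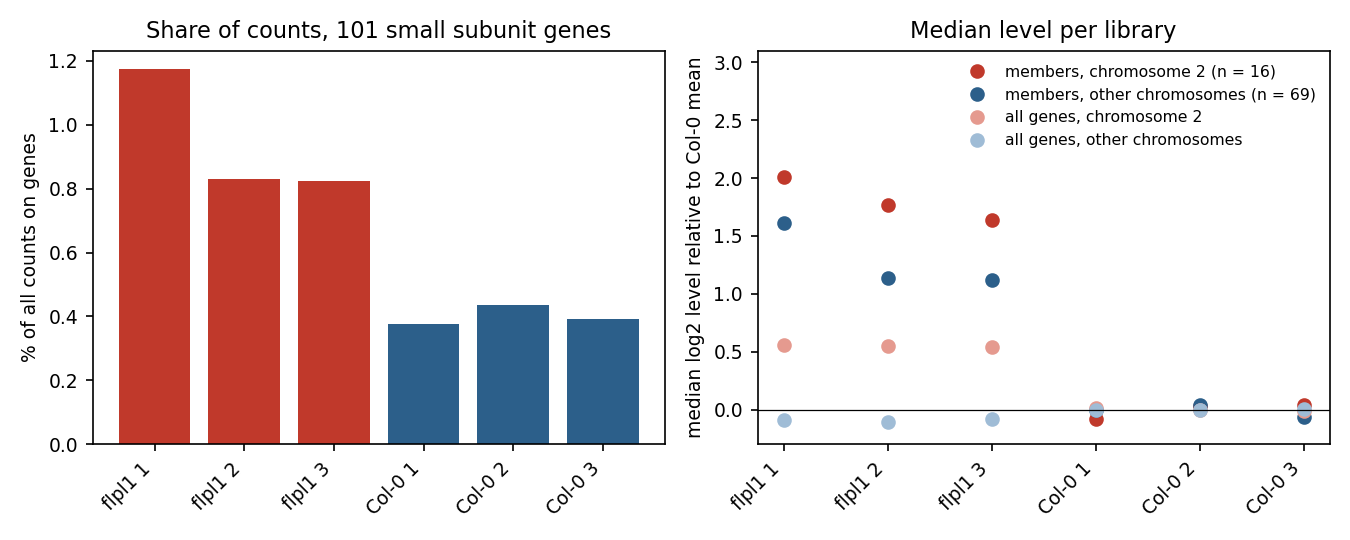
Left, share of all counts on genes (percent) taken by the 101 members in each library; right, median log2 level per library, with each gene set against its Col-0 mean, for members and for all tested genes on Chr. 2 and on the other chromosomes. The 3 *flpl1* bars, 0.824 to 1.17%, are all above the Col-0 bars, and in *flpl1* the members on Chr. 2 lie above the other members in every library.

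Members on Chr. 2 had higher fold changes, by their median, than members on the other chromosomes. All 16 tested members on Chr. 2 were upregulated, against 32.5% of all tested genes there, and of the 69 tested elsewhere 54 (78.3%) were, against 17.4% of all tested genes there. The pseudogene AT2G24110, among the 16, had enough counts only through *flpl1*. The median log2 fold change was 1.85 on Chr. 2 and 1.34 elsewhere, a difference of 0.51 (a ratio of 1.42). For all tested genes the same difference was 0.65 (0.55 on Chr. 2 and -0.10 elsewhere, a ratio of 1.57). Outside Chr. 2 the members' median was highest for Chr. 1 (1.44), followed by Chr. 3 (1.38), Chr. 5 (1.34) and Chr. 4 (1.13). Within a library, the median of the Chr. 2 members exceeded that of the other members by 0.40, 0.63 and 0.52 on the log2 scale in *flpl1* replicates 1 to 3, and by -0.08 to 0.11 in Col-0. Chr. 2 members supplied 18.9% ± 0.687 (SD, n = 3) of the summed small subunit FPKM in *flpl1* and 13.8% ± 0.396 in Col-0, with no overlap (exact permutation test, p = 0.1).

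Paralogues allowed the chromosomes to be compared within 1 protein family, since 13 families had tested members both on Chr. 2 and elsewhere. The share of the family's FPKM that came from Chr. 2 does not depend on how a library is scaled. This share was higher in all *flpl1* libraries than in all Col-0 libraries in 10 families, lower in all in 2 (S4 and S26), and overlapped in S15a. Families of other genes with paralogues on and off Chr. 2 were not counted, so these numbers have no background share. All tested genes on Chr. 2 lay 0.65 above the others in median log2 fold change, so the direction is not particular to these families. The S2 share, among the 10, is uncertain because near-identical copies on Chr. 1 hardly gave reads. With 13 tests, the adjusted p was 0.108 for the 12 families without overlap (raw exact permutation p = 0.1) and 0.3 for S15a, so none could pass 0.05 at this number of plants. The median log2 fold change was higher on Chr. 2 in 11 of the 13 families, with a median difference of 0.57 and a range from -0.53 (S26) to 1.44 (S16).

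**Figure D3:**
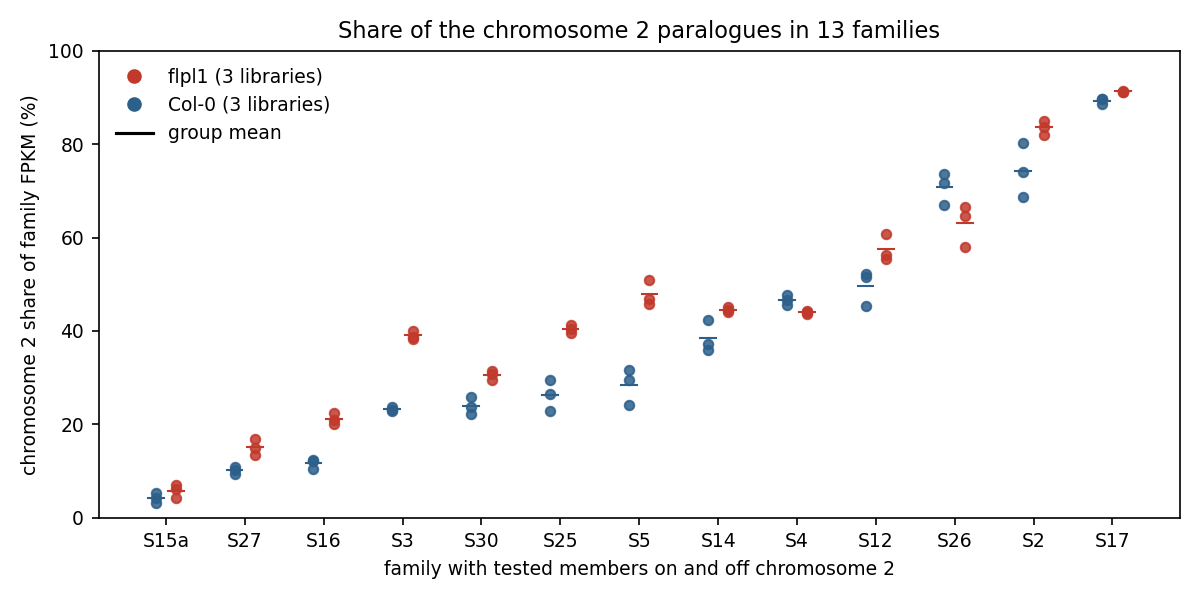
Share of each family's summed FPKM (percent) contributed by its paralogues on Chr. 2, for the 13 families with tested members on and off Chr. 2; points are the 3 *flpl1* (red) and 3 Col-0 (blue) libraries and lines are group means. In S3 the *flpl1* libraries lie at 38.4 to 40.03% and the Col-0 libraries at 22.8 to 23.8%, whereas in S26 and S4 the *flpl1* points lie below.

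The 3 proteins of the messenger RNA entry channel, S3, S2 and S30, each had 1 tested gene on Chr. 2. AT2G31610 (S3; Chr. 2) had 249.8, 196 and 186 FPKM across *flpl1* and 47.8, 63.5 and 57.5 across Col-0. With no overlap between the groups, the log2 fold change was 2.06 ± 0.16 (SE, adjusted p = 0.000107). Its paralogues AT3G53870 and AT5G35530 differed less, with log2 fold changes of 1.15 (adjusted p = 0.00209) and 0.69 (adjusted p = 0.00202, below 2-fold). The Chr. 2 gene thus went from 23.2% ± 0.505 (SD, n = 3) of the S3 transcripts in Col-0 to 39.1% ± 0.869 in *flpl1*. AT2G41840 (S2; Chr. 2) had 359.5, 250.4 and 243 FPKM across *flpl1* and 80.1, 84.7 and 70.7 across Col-0. All *flpl1* values were above all Col-0 values, with a log2 fold change of 2.0 ± 0.20 (SE, adjusted p = 0.000223). Among the tested S2 genes it already led in Col-0, with 74.3% of their FPKM against 83.6% in *flpl1*. Its paralogues AT1G58380 (*XW6*) and AT3G57490 had log2 fold changes of 1.04 and 1.41. The near-identical S2 copies AT1G58684, AT1G58983 and AT1G59359 on Chr. 1 hardly gave reads, and AT1G58684 also shares near-identical stretches with AT1G58380. The Chr. 2 share of S2 is therefore uncertain. AT2G19750 (S30; Chr. 2) had 143, 106 and 105 FPKM across *flpl1* and 36.4, 49.7 and 54 across Col-0. The groups did not overlap, and the log2 fold change was 1.5 ± 0.17 (SE, adjusted p = 0.000371). AT4G29390, its paralogue on Chr. 4, had the highest level of the family in Col-0 (75.9 to 101 FPKM) and 95.1 to 125 FPKM in *flpl1*, so its groups overlapped on this scale (log2 fold change 0.37 ± 0.14 (SE), adjusted p = 0.0555). The third S30 gene, AT5G56670 on Chr. 5, reached 1.69 and became the most abundant, at 135 to 216 FPKM.

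S5, S16 and S25 contact transfer RNAs in the peptidyl or exit site, and all had their largest difference on Chr. 2. AT2G37270 (S5, *RPS5B*; Chr. 2) had 136, 95.5 and 102 FPKM across *flpl1* and 20.8, 29.5 and 29.8 across Col-0. With no overlap between the groups, the log2 fold change was 2.22 ± 0.18 (SE, adjusted p = 0.000121). *RPS5A* (AT3G11940, Chr. 3), known as *AML1* and needed for embryo development, had 162, 108 and 97.8 FPKM across *flpl1* and 65.5, 70.8 and 64.2 across Col-0 (log2 fold change 1.03 ± 0.21 SE, adjusted p = 0.00384). In Col-0 *RPS5B* supplied 24.1, 29.4 and 31.7% of the S5 transcripts and in *flpl1* 45.7, 46.9 and 51.0%. In *flpl1* replicate 3 *RPS5B* exceeded *RPS5A*. AT2G09990 (S16; Chr. 2) had 82.7, 63.8 and 59.6 FPKM across *flpl1* and 19.3, 23.4 and 21 across Col-0. All *flpl1* values were above all Col-0 values, with a log2 fold change of 1.85 ± 0.15 (SE, adjusted p = 0.000126). Its paralogue AT5G18380, with the fifth highest mean FPKM of all members, had 209 to 301 FPKM in *flpl1* and 133 to 154 in Col-0, and its log2 fold change of 0.88 stayed under 2-fold. The third S16 gene, AT3G04230, was low and overlapped between the groups, with 11.2 to 12.2 FPKM in *flpl1* and 11.03 to 15.4 in Col-0 (log2 fold change -0.07, adjusted p = 0.724). AT2G21580 (S25; Chr. 2) had 173, 113 and 120.5 FPKM across *flpl1* and 28.5, 38.9 and 36.1 across Col-0. The groups did not overlap, and the log2 fold change was 2.13 ± 0.19 (SE, adjusted p = 0.000147). The Chr. 4 paralogues AT4G34555 and AT4G39200 had log2 fold changes of 1.13 and 1.20, and the Chr. 2 share of S25 transcripts was 26.3% ± 3.27 (SD, n = 3) in Col-0 and 40.4% ± 0.87 in *flpl1*.

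S14 and S26 line the messenger RNA exit channel and went opposite ways in their Chr. 2 share. AT2G36160 (S14; Chr. 2) had 258, 185 and 174 FPKM across *flpl1* and 65.5, 63.8 and 55.7 across Col-0. With no overlap between the groups, the log2 fold change was 1.88 ± 0.20 (SE, adjusted p = 0.00025). Its paralogues on Chr. 3 had log2 fold changes of 1.66 (AT3G11510) and 1.07 (AT3G52580), and the Chr. 2 share was 38.6% ± 3.47 (SD, n = 3) in Col-0 and 44.6% ± 0.541 in *flpl1*. In S26 the pair on Chr. 2, AT2G40510 and AT2G40590, had log2 fold changes of 1.42 and 1.5, less than their paralogue on Chr. 3. AT3G56340 (S26; Chr. 3) had 178, 108 and 106 FPKM across *flpl1* and 38, 38.1 and 33.1 across Col-0. All *flpl1* values were above all Col-0 values, with a log2 fold change of 1.99 ± 0.23 (SE, adjusted p = 0.000378). The Chr. 2 share of S26 transcripts fell from 70.8% ± 3.48 (SD, n = 3) in Col-0 to 63.0% ± 4.47 in *flpl1* (exact permutation test, p = 0.1). AT2G40510 and AT2G40590 share near-identical stretches, so how the reads were split between them is uncertain. Reads moved between them would keep their summed counts but change their summed FPKM, since their exonic lengths are 740 and 640 bases. Reads dropped for matching both would lower both sums. How such reads were handled is not given in the sources used here, so the S26 share is uncertain too.

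The remaining 5 families with paralogues on and off Chr. 2 were S12, S17, S27, S4 and S15a. S12, a protein of the subunit head, had the largest rise of any family, from a summed 60.6 to 72.2 FPKM in Col-0, the lowest of 31 families, to 209 to 291 FPKM in *flpl1* (a ratio of 3.67). AT2G32060 (S12; Chr. 2) had 161, 126 and 122 FPKM across *flpl1* and 28.1, 37.6 and 31.2 across Col-0. The groups did not overlap, and the log2 fold change was 2.24 ± 0.15 (SE, adjusted p = 8.69e-05). Its paralogue AT1G15930 had a log2 fold change of 1.79. In S17, which stabilises the head, AT2G05220 had 2.05 (adjusted p = 8.69e-05), AT2G04390 had 1.27 and AT3G10610 on Chr. 3 had 1.38. The pair on Chr. 2 is 96.9% identical over 1231 bases, so its split is uncertain, and dropped reads would lower its sum. In S27 the Chr. 2 gene AT2G45710 had 1.74 with 37.1 to 43.5 FPKM in *flpl1* and 10.6 to 15.6 in Col-0, AT5G47930 had 1.26, and *RS27A* (AT3G61110) had 0.91.

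S4 was nearly even across chromosomes. AT2G17360 (Chr. 2) had a log2 fold change of 1.60, against 1.92 for AT5G07090 and 1.53 for AT5G58420, and its share was 45.5 to 47.8% in Col-0 and 43.6 to 44.4% in *flpl1*. S15a had the widest range of a family with a Chr. 2 gene besides S16, from 0.03 for *rps15ae* (AT4G29430; 16.5 to 21.8 FPKM in *flpl1* and 17.4 to 24.1 in Col-0, adjusted p = 0.889) to 1.9 for AT5G59850. The Chr. 2 gene *rps15ab* (AT2G19720) had 1.55, and *RPS15A* (AT1G07770) and *RPS15AD* (AT3G46040) had 0.97 and 0.99, just under 2-fold. S15a joins unlike proteins: *rps15ab* is 92.2% identical to *rps15ae* but 52.0 to 53.6% identical to the other tested members. Its Chr. 2 share therefore pools these proteins. By itself, *rps15ab* had 19.4 to 23.9 FPKM in *flpl1* and 6.26 to 9.53 in Col-0, with no overlap. *RPS15A* shares 491 bases with a neighbouring gene, and AT2G19720 and AT5G59850 overlap genes on the opposite strand, so their values carry that uncertainty. The same holds for AT3G02560, AT4G09800 and AT5G56670 in the S7, S18 and S30 families, and whether strand was used in counting is not given in the sources used here.

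Differences between paralogues were also wide in families without a tested gene on Chr. 2. S6, the small subunit protein phosphorylated by S6 kinase, is coded by 2 genes. AT4G31700 (S6, *RPS6*; Chr. 4) had 319, 200.3 and 181 FPKM across *flpl1* and 43.8, 59.8 and 48.6 across Col-0. With no overlap between the groups, the log2 fold change was 2.36 ± 0.24 (SE, adjusted p = 0.000234). The other S6 gene, *EMB3010* (AT5G10360), had 234, 163 and 164 FPKM across *flpl1* and 79.6, 94.6 and 83.3 across Col-0 (log2 fold change 1.28 ± 0.18 SE, adjusted p = 0.000749). AT5G10360 was the higher of the pair in all Col-0 libraries and AT4G31700 in all *flpl1* libraries, as the latter's share went from 37.0% ± 1.63 (SD, n = 3) to 55.1% ± 2.60.

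**Figure D4:**
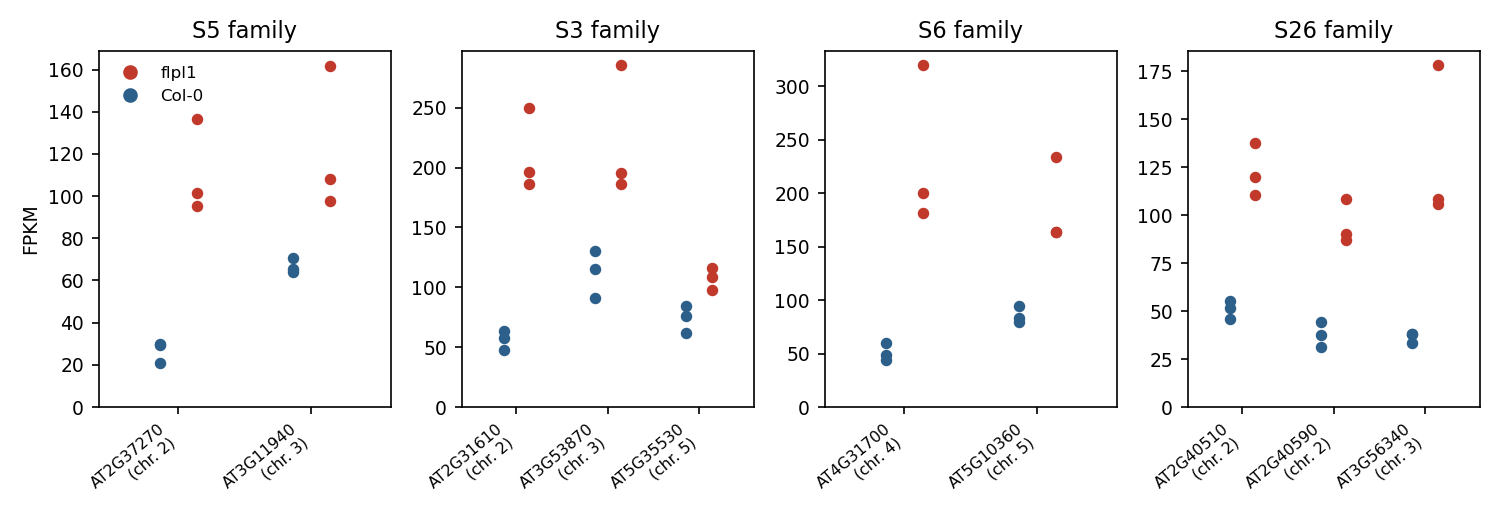
FPKM (vertical axis) of each tested paralogue of the S5, S3, S6 and S26 families in the 3 *flpl1* (red) and 3 Col-0 (blue) libraries, with the chromosome of each gene under its name. In S6 the order of the pair differs between the genotypes, and in S5 AT2G37270 on Chr. 2 rises from 20.8 to 29.8 FPKM in Col-0 to 95.5 to 136 in *flpl1*.

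Such a change of the most abundant paralogue by group mean was seen in 10 of the 30 families with at least 2 tested members. In 7 of them (S17, S19, S28, S30, S3a, S6 and S7) the same gene led in all 3 libraries of each genotype. Over the 81 members of the 30 families, the share within the family was higher in all *flpl1* libraries for 30, lower in all for 33 and overlapping for 18. Shares of a family rise at each other's expense, so these counts are not separate results. The same count was not made over other gene families. These families were singled out after their values were seen.

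S3a and S28 belong to the exit side of the subunit. AT3G04840 (S3a; Chr. 3) had 343, 236 and 210.0 FPKM across *flpl1* and 57, 72.6 and 66.7 across Col-0. All *flpl1* values were above all Col-0 values, with a log2 fold change of 2.17 ± 0.21 (SE, adjusted p = 0.000202). AT4G34670 had 1.02 and fell from 57.1% to 37.9% of the S3a transcripts. Among S28 genes, *RPS28* (AT5G64140) had 1.52, AT5G03850 had 1.02 and AT3G10090 had 0.68. S21 and SA bind to each other at the back of the platform: AT3G53890 and AT5G27700 of S21 had 1.43 and 1.01, and *P40* (AT1G72370) and *RPSAb* (AT3G04770) of SA had 1.56 and 1.81. *P40* supplied nearly all SA transcripts, with 202 to 289 FPKM in *flpl1* and 82.5 to 99.7 in Col-0, against 9.31 to 12 and 2.41 to 4.69 FPKM for *RPSAb*.

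Among proteins of the head without a Chr. 2 gene, S19 and S10 had the members with the largest differences. AT5G61170 (S19; Chr. 5) had 208, 142 and 132 FPKM across *flpl1* and 35.8, 45.5 and 40 across Col-0. The groups did not overlap, and the log2 fold change was 2.15 ± 0.20 (SE, adjusted p = 0.000165). AT3G02080 had 1.46 and AT5G15520, a low gene at 7.54 to 13.99 FPKM, had 0.80. The S10 gene AT5G52650 rose from 29.6 to 31.4 FPKM in Col-0 to 100 to 147 in *flpl1* (2.16), while *RPS10B* (AT5G41520), the main S10 gene, had 1.15 and AT4G25740 had 1.36. S18 lies at the contact with the large subunit. AT1G22780 (S18, *PFL*; Chr. 1) had 135, 90 and 88.8 FPKM across *flpl1* and 29.3, 36.6 and 31.1 across Col-0. With no overlap between the groups, the log2 fold change was 1.85 ± 0.19 (SE, adjusted p = 0.00023). *RPS18C* (AT4G09800), at 89.1 to 105 FPKM the main S18 gene in Col-0, had 109 to 139 FPKM in *flpl1* and a log2 fold change of only 0.45 (adjusted p = 0.0328), and AT1G34030 had 1.34.

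S15 and S23 sit by the decoding centre and were among the most abundant members. *RPS15* (AT1G04270) had 279 to 382 FPKM in *flpl1* and 103 to 130 in Col-0 (log2 fold change 1.54), and AT5G09510 had 1.88. AT5G02960 of S23 had 255 to 378 FPKM in *flpl1* and 125 to 159 in Col-0 (1.21). S20 had 1.28, 1.80 and 1.10 for AT3G45030, AT3G47370 and AT5G62300. The family with the smallest ratio apart from S1 was S29, with a summed 1.5-fold, in which only AT4G33865 (1.06) reached 2-fold and AT3G43980 and AT3G44010 had 0.70 and 0.56.

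Proteins of the body held both ends of the list. The member with the largest fold change was AT4G30800 of S11. In *flpl1* it had 279, 187 and 152 counts, against 21, 32 and 20 counts in Col-0, which did not overlap (log2 fold change 3.25 ± 0.29 (SE), adjusted p = 0.000148). It supplied only 4.88% ± 0.593 (SD, n = 3) of the S11 transcripts in *flpl1* and 1.70% ± 0.302 in Col-0, while *EMB1080* (AT3G48930), with a log2 fold change of 1.51, supplied 50.9% and 58.8%. AT5G59240 of S8 came next at 2.73, but it had 12 to 20 counts in *flpl1* and 1 to 5 in Col-0. AT5G20290, the other S8 gene, had the highest mean FPKM of all members, with 538, 338 and 340.5 FPKM across *flpl1* and 163, 168 and 158 across Col-0, and a log2 fold change of 1.46 ± 0.22 (SE, adjusted p = 0.00104).

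At the low end stood AT5G39850 of S9, which had 14, 10.3 and 19.4 FPKM across *flpl1* and 16, 35.2 and 26.2 across Col-0. The groups overlapped (log2 fold change -0.66 ± 0.28 (SE), adjusted p = 0.0758), and it was lower at an adjusted p under 0.05 when *flpl1* replicate 3 (-0.88) or Col-0 replicate 1 (-0.87) was left out. Its paralogue AT5G15200 had 1.15 and supplied 93.5% of S9 transcripts in *flpl1* and 81.0% in Col-0. S7 and S24 had all their genes upregulated: AT1G48830, AT3G02560 and AT5G16130 of S7 had 1.06, 1.59 and 2.0, and AT3G04920 and AT5G28060 of S24 had 1.56 and 1.34. *RPS13A* (AT4G00100), known as *PFL2*, and AT3G60770 of S13 had 1.25 and 1.38, with nearly the same level of 166 to 240 and 140 to 216 FPKM in *flpl1*.

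1 member stands apart by its annotation. AT5G30510 is plastid ribosomal protein S1 in RefSeq (*RPS1*), although the deposited terms place it in the cytosolic subunit. Its FPKM was 362, 277 and 237 across *flpl1* and 224, 246 and 216 across Col-0, which overlapped on this scale (log2 fold change 0.50 ± 0.20 (SE), adjusted p = 0.0564). Without it, 70 of 84 tested members were upregulated and the median was 1.44.

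Added up by family, small subunit transcripts were higher in all *flpl1* libraries than in all Col-0 libraries in 31 of the 32 families, S1 being the exception. The ratio of the family means ran from 1.5 (S29) to 3.67 (S12) over those 31 families, and its median over the 32 was 2.48. In 21 families every tested member was upregulated, and S1 was the only family with none. Over the 31 families, the coefficient of variation of the summed FPKM within a library was 24.2 to 25.1% in *flpl1* and 28.4 to 30.98% in Col-0, so the ranges did not overlap. S3 was the highest family in every library, and the lowest was S12 in Col-0 and S21 in *flpl1*.

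The 16 members that were not tested hardly gave reads. Of these, 8 had 0 counts in every library and 7 had 1 to 5 over the 6 libraries, and AT2G16360, which like AT2G39590 lies on Chr. 2, had 8 in all. They were AT1G33850, AT1G58684, AT1G58983, AT1G59359, AT2G16360, AT2G39590, AT3G09680, AT3G27450, AT3G30740, AT3G33002, AT3G61111, AT4G12160, AT5G09490, AT5G09500, AT5G43640 and AT5G63070. AT1G58684, AT1G58983 and AT1G59359 are near-identical copies of an S2 gene, so their counts and the shares within S2 are uncertain. Of the 6 pseudogenes, AT2G24110 and AT5G37072 were tested, with 35 to 50 counts in every *flpl1* library against 2 to 17 in Col-0 and log2 fold changes of 1.84 and 2.72. These and AT5G59240 passed the count filter only through *flpl1*. Without them, *RPS1* and the members with near-identical copies or overlapping genes, 58 of 70 (82.9%) were upregulated, 10 of 10 on Chr. 2 and 48 of 60 elsewhere. Among all tested genes, to which these exclusions were not applied, 19.8% were upregulated, 32.5% on Chr. 2 and 17.4% on the other chromosomes.

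The large subunit moved in the same direction. Of 146 listed genes with the cytosolic large subunit term, 130 were tested, 108 were upregulated and 1 was downregulated, with a median log2 fold change of 1.48. Among all genes tested, 19.8% were upregulated and 14.4% downregulated. The medians of the large subunit genes were 2.25 on Chr. 2 and 1.41 elsewhere, a difference of 0.84. The ratio of summed large to small subunit FPKM was 1.89, 1.81 and 1.75 in *flpl1* and 1.69 to 1.71 in Col-0, with no overlap (exact permutation test, p = 0.1). The 3 *RACK1* genes, which code for a scaffold protein on the small subunit head, were also upregulated, with log2 fold changes of 1.17 (*RACK1A*), 2.85 (*RACK1B*) and 3.43 (*RACK1C*).

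Genes that act on ribosome production moved in both directions. Of 8 genes listed for the TOR kinase pathway, which passes growth signals to S6 through S6 kinase, *RAPTOR2* was upregulated (1.33) and *S6K2* was downregulated (-2.10). Another 4 were lower at an adjusted p under 0.05 with less than 2-fold: *RAPTOR1* (-0.69), *LST8-1* (-0.52), *S6K1* (-0.59, adjusted p = 0.0111) and *YAK1* (-0.60). *TOR* (-0.42, adjusted p = 0.0509) and *TAP46* (-0.28, adjusted p = 0.0502) did not pass. *S6K2* had 2.98, 2.23 and 4.31 FPKM across *flpl1* and 13.4, 14.2 and 17.6 across Col-0, which did not overlap. Of 6 nucleolar and regulator genes, *FIB2*, which codes for a fibrillarin that methylates ribosomal RNA, was upregulated (2.91). *NUC1* and *FIB1* were higher with less than 2-fold (0.86 and 0.58), *TCP20*, a factor that binds promoters of ribosomal protein genes, was lower (-0.93, adjusted p = 0.0032), and *NUC2* and *APUM23* did not pass.

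Promoters of the members shared short elements that the choice of genes did not use. The telo-box AAACCCTA was found on either strand of the window from 250 bases before to 50 after the deposited gene start in 75.8% of the 95 members with a protein, against 8.57% of 26711 protein-coding genes. The site II element, TGGGCC or TGGGCT, was found in 75.8% of them against 21.7%. With RefSeq gene starts the shares were 49.5% against 6.17% and 66.3% against 22.0%, so the telo-box share depends on where the gene is taken to begin. Neither element contains the other.

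The 250 bases before the start are shown for 5 members in which the deposited and RefSeq starts coincide, because they cover the range of element content and include S7 paralogues with different fold changes. They are from the RefSeq TAIR10.1 genome, run 5′ to 3′ on the strand of the gene, and have telo-boxes and site II elements (either strand) in capitals.
AT2G36160, chr2:15169568-15169817 (plus strand): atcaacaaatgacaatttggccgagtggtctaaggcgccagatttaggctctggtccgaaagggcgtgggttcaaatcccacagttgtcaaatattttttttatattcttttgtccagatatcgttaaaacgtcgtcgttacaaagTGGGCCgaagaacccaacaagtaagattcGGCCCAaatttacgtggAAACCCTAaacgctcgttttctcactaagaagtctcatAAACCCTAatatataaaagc
AT2G41840, chr2:17461540-17461789 (minus strand): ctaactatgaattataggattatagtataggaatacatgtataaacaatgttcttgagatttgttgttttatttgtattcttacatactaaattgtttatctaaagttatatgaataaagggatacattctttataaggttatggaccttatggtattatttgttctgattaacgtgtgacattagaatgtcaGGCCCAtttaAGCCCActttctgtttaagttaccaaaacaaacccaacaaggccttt
AT1G48830, chr1:18061303-18061552 (minus strand): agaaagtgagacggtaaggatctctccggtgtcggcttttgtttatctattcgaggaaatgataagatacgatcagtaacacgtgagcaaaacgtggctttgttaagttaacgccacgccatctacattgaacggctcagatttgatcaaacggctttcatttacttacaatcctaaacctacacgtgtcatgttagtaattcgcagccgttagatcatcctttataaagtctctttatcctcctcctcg
AT5G16130, chr5:5268171-5268420 (plus strand): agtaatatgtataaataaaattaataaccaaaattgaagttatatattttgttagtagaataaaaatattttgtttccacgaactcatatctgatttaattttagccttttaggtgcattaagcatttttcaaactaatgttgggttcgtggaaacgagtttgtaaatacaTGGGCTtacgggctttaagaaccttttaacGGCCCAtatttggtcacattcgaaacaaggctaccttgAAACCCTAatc
AT2G09990, chr2:3781078-3781327 (plus strand): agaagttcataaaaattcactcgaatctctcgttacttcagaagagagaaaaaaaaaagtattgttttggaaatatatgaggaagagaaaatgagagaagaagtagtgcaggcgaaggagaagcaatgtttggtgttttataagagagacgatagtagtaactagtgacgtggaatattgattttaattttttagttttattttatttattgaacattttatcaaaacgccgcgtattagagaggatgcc
AT2G36160 (S14) holds 2 telo-boxes and 2 site II elements, and AT2G41840 (S2) 2 site II elements. Of the S7 paralogues shown, AT5G16130, with a log2 fold change of 2.0, holds 1 telo-box and 2 site II elements before its start. AT1G48830, with 1.06, holds none there. The third S7 gene, AT3G02560, is not shown. From 250 bases before to 50 after its RefSeq start it holds a telo-box and 4 site II elements, and its log2 fold change was 1.59. Whether the elements bear on these differences was not tested. The telo-boxes counted for AT2G41840 and AT1G48830 lie in the 50 bases after the start, which are not shown. AT2G09990 (S16) holds neither element and had a log2 fold change of 1.85.

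By element content, the median log2 fold change was 1.41 for the 54 tested members with both elements (47 upregulated), 1.55 for the 11 with the telo-box only (10 upregulated), and 1.54 for the 11 with site II only (9 upregulated). The 7 with neither had a median of 0.88, and 2 of them (AT2G09990 and AT3G11510) were upregulated. This group includes *RPS1*, *rps15ae*, AT3G10090, *RS27A* and AT5G18380. With RefSeq gene starts, 18 tested members had neither element, 11 of them were upregulated and their median was 1.34, against 1.38 for the 31 members with both, so the lower median depends on the gene start. The groups were not compared by a test.

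Across the 85 tested members, the log2 fold change had a Spearman rank correlation of -0.03 with mean FPKM, 0.28 with exonic length and -0.30 with the Col-0 FPKM, which enters the fold change itself. These are descriptions over genes measured in the same 6 libraries.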

How the data were processed

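RNA from mature leaves of 3 *flpl1* and 3 Col-0 plants was sequenced, 1 library per plant, with groups and replicate numbers taken from the sample labels. The submitters' processing notes name cutadapt 1.9.1, HISAT2, HTSeq 0.6.1 and TAIR10. Deposited counts are whole reads per gene as the authors counted them, with no normalization. The authors' deposited FPKM is this count per exonic length and library total: 100% of values were within 0.01 of that computation. How reads of identical copies, overlapping genes and strand were handled is not given in the sources used here. The authors' DNA sequencing and qPCR were not analysed here.

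Counts were tested with edgeR 4.0.16 (quasi-likelihood, TMM, filterByExpr with a minimum count of 10) in R 4.3.3 on all 18638 genes that passed, with Benjamini-Hochberg adjustment. The common biological coefficient of variation was 22.2%. Standard errors are the log2 fold change divided by the square root of its F value. On simulated data with the mean levels and totals of these libraries (18638 genes, 200 changed), 92 of the genes changed by 1 on the log2 scale and 196 of those changed by 2 were recovered, with 4 and 13 false calls. Far fewer genes were changed there than in the data, where 5753 were higher and 5720 lower at an adjusted p under 0.05. Every simulated gene also had the same variability between plants, so these numbers do not measure the power of this comparison. Low-count genes were limited in precision by the library totals, others by the 3 plants on each side. Per-library values were compared with exact two-sided permutation tests, whose smallest p is 0.1. The median level per library is the median over genes of the log2 TMM-scaled value relative to the Col-0 mean.

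Families were built with BLAST 2.17.0 from RefSeq (TAIR10.1) proteins at 50% identity over 70% of the shorter protein and named from RefSeq products, since the deposited descriptions were blank. The SA pair, just under the coverage limit, was joined by name. A near-identical copy was at least 95% identical over at least 100 bases. Promoter windows used the deposited gene starts on the TAIR10.1 sequence, in which 31545 deposited genes were found. Genes were named by a rule: every member on Chr. 2, the 6 largest and 6 smallest log2 fold changes, paralogues of families with a Chr. 2 gene, the 5 highest mean FPKM, members with a known role, and members left out by the filter. The values of 1 member are not reported here singly. Ubiquitin fusion genes for S27a lacked the terms and were no members. Members, lists and tests were chosen with earlier results of these data known. The marker lists not described in the report gave 1 of 4 guard cell, 1 of 3 vasculature, 3 of 5 mesophyll, 0 of 2 trichome, 0 of 3 root and 1 of 3 flower and pollen genes upregulated, with *PYK10* (root, -5.01 on the log2 scale) and *VGD1* (pollen, -3.67) downregulated, and 0 of the 4 shoot meristem genes was tested. Alternatives were RLE scaling, centring on genes outside Chr. 2, TMM without ribosomal protein genes, no filter, a mean FPKM of at least 5, DESeq2 1.42.0, limma 3.58.1 on log2(FPKM + 1) and log2(FPKM + 0.1), a test of the 2-fold limit, the replicate block, each library left out in turn, and families at 80% identity.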

Additional observations from a re-analysis of the deposited data

How the results depend on the processing

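The count of upregulated members was 70 and stayed between 55 and 73 under the scaling, filter, tool and block alternatives, all of which kept the direction of the median. The exception was the test of the 2-fold limit itself, with 46. Leaving out 1 library gave 57 (without *flpl1* replicate 1) to 72 upregulated members, 79 to 82 higher and 0 to 1 lower at an adjusted p under 0.05. The lower member was AT5G39850, without *flpl1* replicate 3 or without Col-0 replicate 1. The median log2 fold change of the members was 1.24 to 1.52 and the Chr. 2 difference 0.44 to 0.58 over all these settings. Limma on log2(FPKM + 1) and log2(FPKM + 0.1) moved the median of all tested genes to -0.12 and -0.14, where it called 55 and 58 members upregulated with medians of 1.24 and 1.28. Of 1357 values of single members under the other settings, 42 lost and 10 gained the adjusted p threshold and 0 reversed, in 37 members. Without filter, 93 members were tested and 70 were upregulated. At 80% identity the proteins formed 37 families, and the Chr. 2 share was higher in all *flpl1* libraries in 11 of those with members on and off Chr. 2, against 10. At that limit *rps15ab* was grouped with *rps15ae*, apart from the other S15a genes, so these counts are not of the same groups.

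Same-numbered plants did not deviate together (correlations of 0.02, -0.11 and 0.09), so the numbers do not pair the plants. With the replicate block, 67 members were upregulated, 80 were higher, the median was 1.43 and the Chr. 2 difference was 0.54.

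Chosen after seeing the data, RefSeq gene starts in place of the deposited ones lowered the number of member promoters with the telo-box from 72 to 47, because the windows then cover other bases, and that with site II from 72 to 63. The median log2 fold change of members with neither element was then 1.34 in place of 0.88. With 3 plants on each side, the exact permutation tests could not go below p = 0.1. Members with few counts, such as AT5G59240, were measured least precisely.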
